A study of Gossypium hirsutum with 6 samples.

Results

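Gh_D12G260500 and Gh_D03G096000 are 2 genes of upland cotton (Gossypium hirsutum) whose closest Swiss-Prot match is NAC domain-containing protein 43 of Arabidopsis, also called NST1. They were picked by their gene identifiers from the 73622 genes of the deposited table, because they were known to be much higher in older fibers, so their difference between stages is described here and not tested. Poly(A) RNA was sequenced from fibers of cotton strain 63 collected 5 days (5DPA) or 15 days (15DPA) after the flower opened (days post-anthesis). All plants were of that strain, the labels name no treatment or transgene, and each stage has 3 libraries that the series calls biological replicates; how many plants or bolls went into a library is not given in the sources used here. A cotton fiber is a single cell of the seed coat that first elongates and later fills with a thick wall of nearly pure cellulose.

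NST1 belongs to a small group of NAC transcription factors that act as master switches of secondary wall formation in Arabidopsis. NST1 and its relative NAC12 (SND1) turn on a cascade of MYB and NAC factors, and through it the enzymes that make cellulose, xylan and lignin in stem fibers. A separate group, the VND factors, does the same in water-conducting vessels. The roles named here for cotton genes are those of the Arabidopsis protein each one matches, and they were not measured in these fibers.

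Gh_D12G260500 lies on the minus strand of D12 from 59428872 to 59430213, and its gene model is 1167 bases long. Gh_D03G096000 lies on the plus strand of D03 from 33524811 to 33526301, with a gene model of 1347 bases. Positions are those of the deposited table, whose genome build is not named, and exon and UTR limits were not used here. The table assigns Gh_D03G096000 the terms for regulation of transcription and DNA binding and gives Gh_D12G260500 no term, although both carry the same protein match.

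Libraries held 15.61 to 16.94 M reads, so that 1 read on Gh_D12G260500 was worth 0.0506 to 0.0549 FPKM (reads per kilobase of gene and per M reads of the library). Along a first principal component of 65.4% of the variance, replicate 2 of 15DPA lay nearest to 5DPA, at 31.1 against 89.7 and 100.4. Replicate 3 of 15DPA differed otherwise: 35 genes had 20 or more reads there and no more than 1 in the remaining 5 libraries combined, and each of these had 0 to 5 such genes. Fiber genes were abundant: the 62 genes matched as fiber markers, among them expansin-A8 and 3-ketoacyl-CoA synthase 6, summed to 3570 to 4830 FPKM at 5DPA and 7380 to 10100 FPKM at 15DPA, while fasciclin-like protein 11, also on that list, was near 0 at 0.585 FPKM in sum over its 2 genes, averaged over the 6 libraries.

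Gh_D12G260500 had 5, 2 and 1 reads in replicates 1, 2 and 3 of 5DPA, and 94, 83 and 78 reads in those of 15DPA. In FPKM these were 0.274, 0.103 and 0.052 at 5DPA and 4.95, 4.2 and 4.28 at 15DPA. The 15DPA libraries lay close together, with a coefficient of variation of 9.2%, and every one of them was far above every 5DPA library. The 95% exact Poisson interval, which covers counting error only, was 0.0891 to 0.64 FPKM for the highest 5DPA library and 3.34 to 5.21 FPKM for the lowest 15DPA library. In replicates 2 and 3 of 5DPA the gene was within the 3 reads that a count of 0 would still allow.

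Gh_D03G096000 was also nearly silent at 5DPA, with 13, 1 and 7 reads, and had 143, 108 and 208 reads at 15DPA. Its levels were 0.618, 0.0447 and 0.315 FPKM at 5DPA and 6.53, 4.73 and 9.89 FPKM at 15DPA. The stages did not overlap, but this gene varied more than the D12 gene among the 15DPA libraries, with a coefficient of variation of 37.1%. Replicate 3 stood highest and replicate 2 lowest, and the Poisson intervals of those 2 libraries, 8.59 to 11.3 and 3.88 to 5.71 FPKM, lay apart.

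The D12 gene averaged 0.143 ± 0.117 FPKM in the 5DPA libraries and 4.48 ± 0.413 in those of 15DPA (SD, n = 3 each), a ratio of means of 31.3. The D03 gene averaged 0.326 ± 0.287 and 7.05 ± 2.62 FPKM (SD, n = 3 each), a ratio of 21.6. The edgeR log2 changes, scaled by TMM and given as a description, were 5.22 ± 0.48 and 4.73 ± 0.66 (SE). These placed the genes 80th and 107th among the 40054 genes with a mean of at least 1 FPKM over the 6 libraries. Among those genes 12.9% had higher, non-overlapping values at 15DPA, and the pattern of under 0.5 FPKM at 5DPA with at least 4 FPKM at 15DPA was shared by 75 genes in all. Both genes met the mean of 1 FPKM through their 15DPA values. At 15DPA they were still of middling abundance, since 56.9% of the tested genes were at or above the D12 gene and 42.2% at or above the D03 gene.

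**Figure D1:**
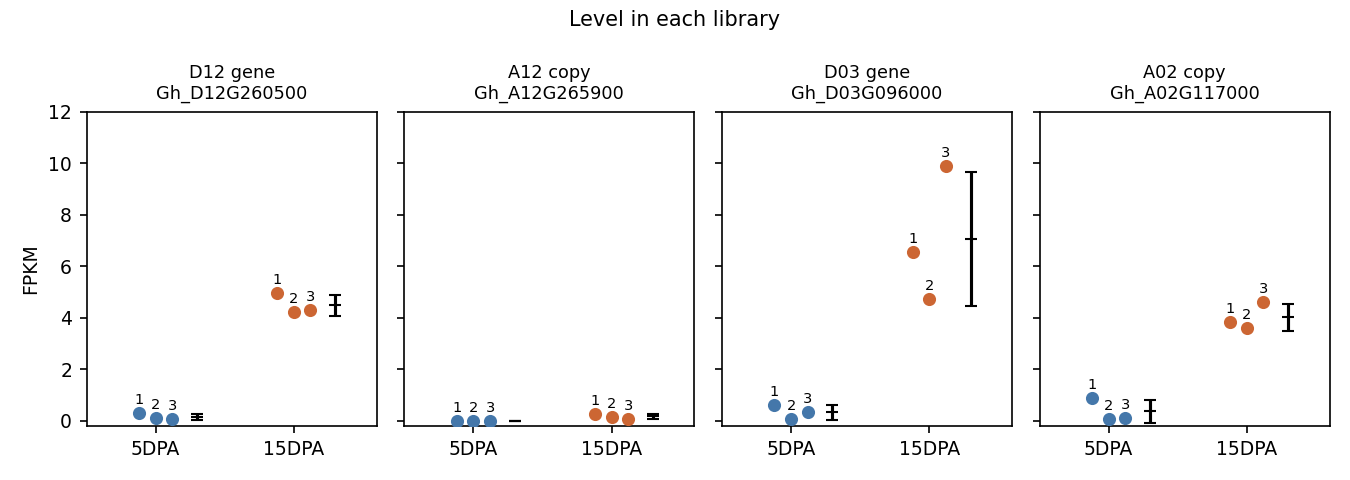
FPKM (linear axis) of both genes and of their A-chromosome copies in each library; numbers beside the points are replicate numbers, and the bars at the right of each group give the mean and SD over 3 libraries. Both D genes and the A02 copy were under 1 FPKM in every 5DPA library and at least 3.58 FPKM in every 15DPA library, and the A12 copy was at most 0.263 FPKM throughout.

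At 5DPA the trace signal was not spread evenly. Replicate 1 held 5 of the 8 reads of the D12 gene and 13 of the 21 reads of the D03 gene. The same library was also the highest at 5DPA for some other gene groups: the 26 genes matching NAC83 or NAC104 summed to 150 FPKM there, against 32.8 and 30.8 in replicates 2 and 3, and the laccases and peroxidases of the lignin list to 151 FPKM, against 14.2 and 13.4. It was not the highest for the xylan genes, which summed to 248 FPKM there against 268 and 267, nor for the cellulose genes, at 2490 FPKM against 2130 and 3220. Without replicate 1 of 5DPA the log2 changes were 6.03 for the D12 gene and 5.55 for the D03 gene. The part of that library's other differences in these values was not tested. Because fibers were sampled in bulk, more cells that express a gene and more of its RNA per cell cannot be told apart.

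The D03 gene was the more abundant at 15DPA in 3 of 3 libraries, per length, by 1.32, 1.13 and 2.31 times. The difference averaged 2.57 ± 2.68 FPKM (SD, n = 3), smaller than its spread, and the exact paired permutation p was 0.25, the smallest that 3 pairs allow (two-sided). At 5DPA it was higher in 2 of 3 libraries, and the counts were too low to rank the genes. The D03 gene, whose model is the longer, took 60.3%, 56.5% and 72.7% of their joint reads in replicates 1, 2 and 3 of 15DPA (exact binomial 95% intervals 53.8 to 66.6%, 49.2 to 63.7% and 67.2 to 77.8%).

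Cotton carries an A and a D subgenome, so most genes have a counterpart on the other set of chromosomes. The table holds 14 genes that match NAC43 (13 genes) or NAC12 (1 gene), 7 on A and 7 on D chromosomes, and none that match NAC66, the remaining member of the Arabidopsis trio. Only 3 of the 14 reached a mean of 1 FPKM: the D12 gene, the D03 gene and Gh_A02G117000. A further 5 genes, Gh_A08G125100, Gh_A09G206000, Gh_D07G143400, Gh_D08G121100 and Gh_D09G199200, had no read in any library. The remaining 6 had reads but no more than 0.505 FPKM on average at 15DPA, the highest being Gh_A07G144300 with 7, 11 and 8 reads at 15DPA and 1, 0 and 0 at 5DPA.

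The 14 genes summed to 1.89, 0.404 and 0.618 FPKM in the 5DPA libraries and to 16.6, 13.7 and 19.5 FPKM in the 15DPA libraries. The D12 and D03 genes made up 69.2%, 65.4% and 72.8% of that sum at 15DPA. Gh_A02G117000 gave most of the rest, with 23.2%, 26.2% and 23.6%. The fiber-type NAC signal at 15DPA thus came mostly from 3 genes of the 14 in each library. The joint share of the D12 and D03 genes was similar in each, but their split was not. Per length, the D03 gene stood at 1.32, 1.13 and 2.31 times the D12 gene in replicates 1, 2 and 3.

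**Figure D2:**
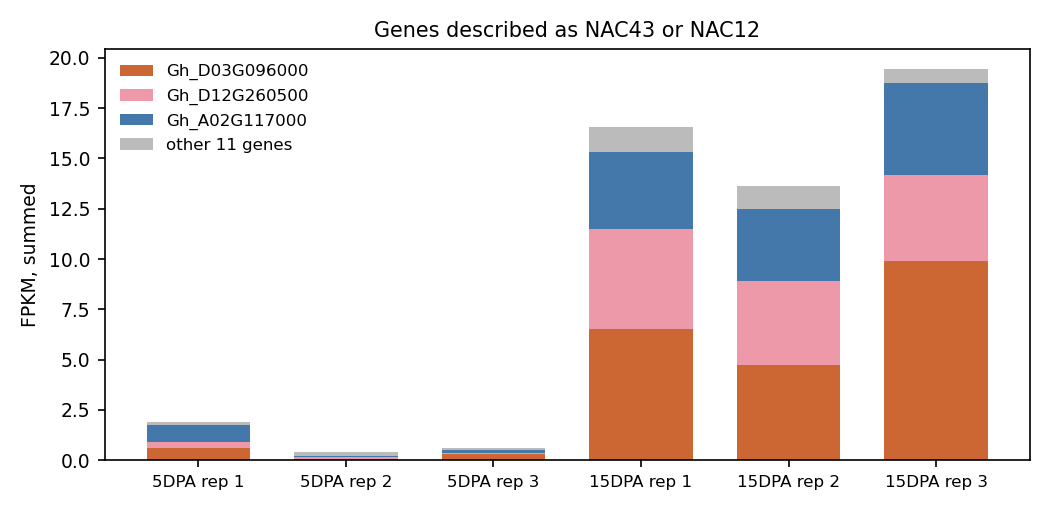
Summed FPKM of the 14 genes matching NAC43 or NAC12 in each library, stacked by gene, on an axis that starts at 0. At 15DPA the D03 gene, the D12 gene and Gh_A02G117000 fill nearly the whole bar, and the other 11 genes together a thin layer.

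The counterparts were identified by position. Beside Gh_D12G260500, all 7 of the neighbours with a protein match, among the 4 genes on each side, have a neighbour with the same match beside Gh_A12G265900 on A12 (102432686 to 102434027), in the same order. That gene has the same model length, 1167 bases, the same strand and the same genomic span, and it is the 1 gene of the table matched to NAC12. Beside Gh_D03G096000, 3 of 5 such neighbours (GPR107, an uncharacterized protein and dirigent protein 3) recur beside Gh_A02G117000 on A02 (43957579 to 43959329), on the opposite strand and in reversed order.

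The D12 gene and its A12 counterpart differed strongly. Gh_A12G265900 had 5, 3 and 1 reads in the 15DPA libraries and none at 5DPA, which summed to 9 reads against 255 on D12. The D12 share was 94.9%, 96.5% and 98.7% of reads in replicates 1, 2 and 3 (lower ends of the exact binomial 95% intervals 88.6%, 90.1% and 93.1%). The difference of 4.32 ± 0.33 FPKM (SD, n = 3) was far above its SD and had the same sign in 3 of 3 libraries, with the exact paired permutation p at its floor of 0.25. The D12 gene was picked for being much higher at 15DPA and the A12 copy was not, which favoured this sign and size in advance.

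The D03 gene and its A02 counterpart were both expressed. Gh_A02G117000 had 100, 97 and 115 reads at 15DPA and 22, 2 and 3 at 5DPA, or 3.84, 3.58 and 4.6 FPKM against 0.88, 0.0752 and 0.114 FPKM. Per length, the D03 gene was 1.7, 1.32 and 2.15 times as high in the 15DPA libraries, a difference of 3.05 ± 2.09 FPKM (SD, n = 3, exact paired permutation p = 0.25, the smallest possible). The choice of the D03 gene for being much higher at 15DPA favoured this sign too. At 5DPA the D03 gene was higher in 1 of 3 libraries. The A02 gene had the same library order as the D03 gene at 15DPA, with replicate 3 highest and replicate 2 lowest, and replicate 1 was highest at 5DPA for both. However, the Poisson intervals of the A02 gene overlapped among the 15DPA libraries, at 3.12 to 4.67, 2.9 to 4.36 and 3.8 to 5.52 FPKM. Its order at that stage was thus within counting error.

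Gh_A02G117000 was not picked with the pair, though its rise was known when they were chosen. It rose by 3.79 ± 0.74 on the log2 scale (SE), with an edgeR adjusted p of 0.0143, where 13% of the tested genes were called higher. Its call was lost without replicate 1 of 15DPA (adjusted p = 0.0556). Whether its change differs from those of the D genes was not tested.

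For a frame of reference, 1083 gene pairs were formed from protein matches that occur once on A12 and once on D12, with a summed level of at least 1 FPKM. The D copy held a median of 51% of the 15DPA level, with quartiles of 40.7% and 62.9%. The D12 NAC gene, at 96.6%, was matched or exceeded by 25 of the pairs, or 2.31%. For the 341 pairs of A02 and D03 the median was also 51%, and the D03 NAC gene, at 63.8%, was matched or exceeded by 22.6%. These ranks are a description: the NAC genes were picked for high 15DPA levels, which favours a high D share. The D12 NAC pair does not itself meet the rule for the reference, since its copies match NAC43 and NAC12. This reference was set up after the reads of the copies had been seen. Reads that fit both copies may have been placed on either by the authors' counting, which makes the shares uncertain.

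**Figure D3:**
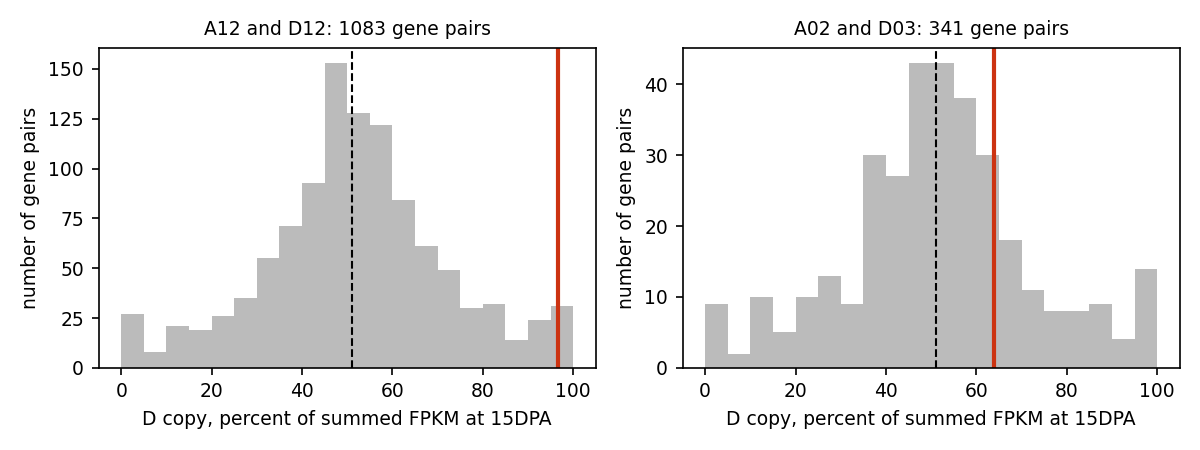
Number of gene pairs by the D copy's percent of the pair's summed FPKM at 15DPA, for A12 with D12 and for A02 with D03; the dashed line is the median of the pairs and the red line the NAC gene. The D12 NAC gene lies at 96.6%, in the last bin, and the D03 NAC gene at 63.8%.

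The nearest neighbours with a protein match had other profiles than the pair. On D12 the nearest gene with a protein match on the higher side is Gh_D12G260600, a PHD finger protein 10.5 kb away, with 352, 438 and 374 reads at 15DPA and 472, 532 and 457 at 5DPA (log2 change −0.04 ± 0.12 SE, edgeR adjusted p = 0.834). On the lower side Gh_D12G260300, an IQ-domain protein 19.5 kb away, had no read at 15DPA and 1, 2 and 4 at 5DPA. On D03 the higher neighbour Gh_D03G096100, an uncharacterized protein 15.1 kb away, did not pass (log2 change −0.59 ± 0.22 SE, edgeR adjusted p = 0.095). Its fall was called by limma (adjusted p = 0.0255) and with library totals alone (edgeR adjusted p = 0.0311). The lower one, Gh_D03G095700, matched to auxin response factor 9 and 139 kb away, fell by 1.14 ± 0.22 on the log2 scale (SE, edgeR adjusted p = 0.0136), a call lost without replicate 1 of 15DPA (adjusted p = 0.0611).

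A gene chosen after its values were seen, Gh_D03G096200, matched to GPR107, lies 16.7 kb from the D03 gene on the higher side. It rose from 51, 68 and 72 reads to 148, 142 and 130 (log2 change 1.43 ± 0.21 SE, edgeR adjusted p = 0.0069). Its A02 counterpart Gh_A02G116800 went from 20, 16 and 35 reads to 129, 109 and 117 (log2 change 2.61 ± 0.35 SE, edgeR adjusted p = 0.00559). Other genes within 4 positions went the other way: Gh_D03G096400, matched to endoglucanase 1, fell by 3.98 ± 0.62 on the log2 scale (SE, edgeR adjusted p = 0.00825), and Gh_A02G116700, beside the A02 gene, by 1.59 ± 0.47 (SE, edgeR adjusted p = 0.0478).

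Other regulators of the secondary wall cascade were called about as often as genes in general. The list holds 128 genes in all, 126 without the pair, and 22 of these were tested. Of them 2 rose and 2 fell by edgeR, or 18.2% called. Of all tested genes 23.4% were called, 13% higher and 10.4% lower. Their median log2 change was −0.5, against −0.04 over all genes. The count was 0 without replicate 1 of 15DPA and 1 without replicate 2 of 5DPA.

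The vessel-type switches stayed low. Their 22 genes, matching NAC7, NAC30, NAC37 and NAC76, summed to 5.84, 5.3 and 5.89 FPKM at 5DPA and 1.82, 6.8 and 3.36 FPKM at 15DPA. Gh_D12G062700, matched to NAC37 and the 1 gene of them tested, averaged 1.33 ± 0.404 FPKM at the earlier stage and 0.805 ± 0.72 at the later (SD, n = 3 each; edgeR adjusted p = 0.585). The sum was highest in replicate 2 of 15DPA, the library in which the D03 gene was lowest. The 4 genes for XCP1, a protease of dying vessel cells, were likewise highest in that library at 15DPA, with 0.627, 2.8 and 0.243 FPKM in replicates 1, 2 and 3, but replicate 1 of 5DPA was higher still, with 3.87 FPKM against 0.823 and 0.7 in the others of that stage. All 70 vessel markers together, of which 1 metacaspase-9 gene gave most, summed to 63.2, 80.0 and 72.7 FPKM at 15DPA and 63.7, 44.8 and 53.4 at 5DPA, which overlapped. Only 4 of the 70 were tested, and 3 of these were called higher, where 13% of all tested genes were called so. They were that metacaspase-9 gene and a laccase-4 and a laccase-17 gene described with the wall genes. The 24 genes for those laccases summed to 9.72, 9.92 and 15.4 FPKM at 15DPA, above the 1.86, 2.53 and 3.43 FPKM of 5DPA. Sums of 46 phloem and 57 green tissue markers were lower in all 15DPA libraries, at 32.2 to 69.6 and 25.6 to 46.8 FPKM, than in those of 5DPA, at 127 to 196 and 74.0 to 79.8 FPKM. Of their tested genes 2 of 13 (15.4%) and 6 of 15 (40%) fell by edgeR, against 10.4% of all tested genes. The sums of 85 seed markers overlapped, at 609 to 913 FPKM at 15DPA and 507 to 734 FPKM at 5DPA. But 7 of the 17 tested rose and 2 fell, with a median log2 change of 0.98, where 13% of all tested genes rose and 10.4% fell. The part of such cells in the values of the pair was not tested.

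None of the 6 genes matching NAC73 (SND2), a factor downstream of the switches, reached a mean of 1 FPKM. They summed to 0.446, 1.6 and 0.227 FPKM at 15DPA and 3.52, 0.86 and 0.921 FPKM at 5DPA, with the highest value again in replicate 1 of 5DPA. Of 7 tested genes matching NAC83 or NAC104, which restrain vessel formation in Arabidopsis, 1 (14.3%) was called lower, against 10.4% of all tested genes. It was Gh_A03G176600, which fell from 12.1, 3.75 and 2.83 FPKM to 0.159, 0.689 and 0.831 FPKM. Its log2 change was −3.17 ± 0.74 (SE) with an edgeR adjusted p of 0.0235. This call was lost without replicate 1 of 15DPA or of 5DPA and without replicate 2 of 5DPA (adjusted p up to 0.0832). The most abundant of them, Gh_A04G121300, averaged 21.1 ± 25.9 FPKM early and 14.2 ± 3.5 FPKM late (SD, n = 3 each). Its 5DPA spread came from replicate 1, with 887 reads against 109 and 119, and without that library it was called higher at 15DPA (log2 change 1.48, edgeR adjusted p = 0.0239).

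The MYB factors that lie below the switches in Arabidopsis showed no common direction. MYB46 and MYB83, the direct targets that relay the signal there, had no tested gene. Of 8 tested downstream MYB genes 1 was called higher and 1 lower, or 25% called, against 23.4% of all tested genes. Gh_A12G136400, matched to MYB61, rose from 8.88, 7.15 and 7.74 FPKM to 17.3, 16.2 and 7.54 FPKM. Replicate 3 of 15DPA lay within the 5DPA range, and the call (log2 change 1.07 ± 0.31 SE, edgeR adjusted p = 0.0415) was lost under 8 of the alternatives (adjusted p up to 0.146). Gh_A01G099800, matched to the lignin regulator MYB63, fell by 2.01 ± 0.41 on the log2 scale (SE, edgeR adjusted p = 0.0163), a call lost without replicate 1 of 15DPA or replicate 2 of 5DPA (adjusted p up to 0.0699).

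The most abundant regulator of the list was Gh_D03G165800, also matched to MYB61, with 182, 163 and 157 FPKM at 15DPA and 131, 141 and 180 FPKM at 5DPA. The stages overlapped and it did not pass (edgeR adjusted p = 0.131). The other tested genes of that class, Gh_A08G061000 (MYB20), Gh_A11G113000, Gh_D08G141100, Gh_D11G113900 and Gh_D12G136700 (all MYB61), had log2 changes from −0.82 to 0.38 and did not pass. Gh_D12G136700 was called lower by limma (adjusted p = 0.0351) and with library totals alone (edgeR adjusted p = 0.0355). Of 5 tested MYB4-type repressors, 0 were called by edgeR, 0 had an unadjusted p under 0.05, 0 were called by DESeq2 and 1 by limma on log2(FPKM + 1).

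**Figure D4:**
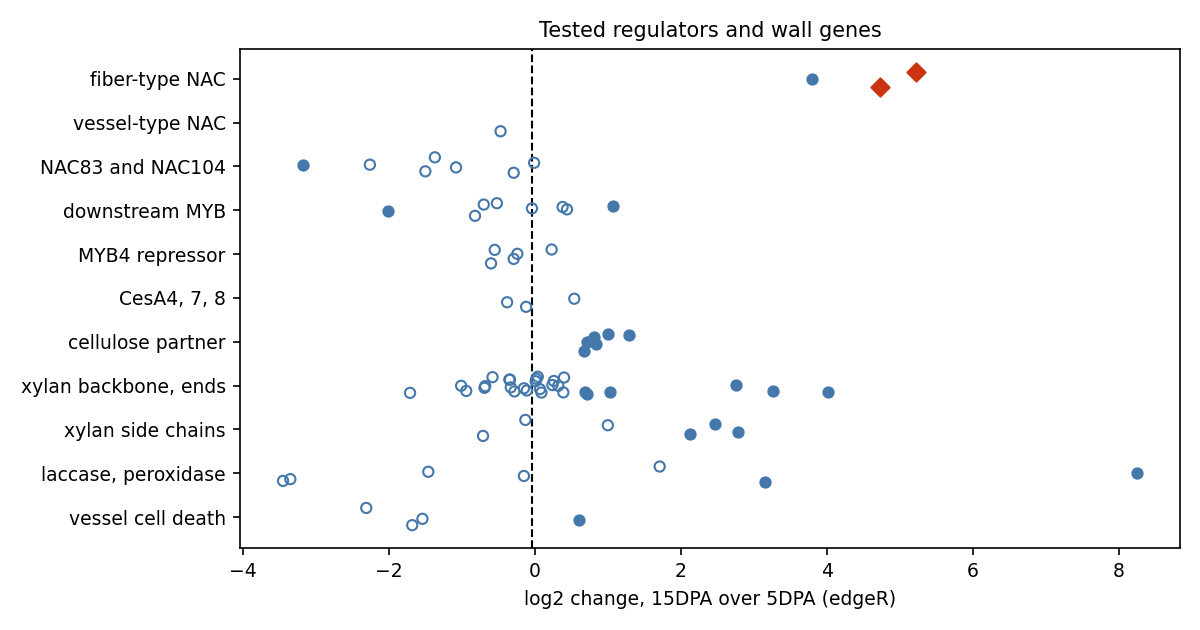
Log2 change, 15DPA over 5DPA, of each tested regulator and wall gene by role; filled circles passed edgeR's adjusted threshold, open circles did not, red diamonds are the D12 and D03 genes (no test), and the dashed line is the median of all tested genes. The D12 and D03 genes lie at 5.22 and 4.73, right of the other regulators, and filled circles among the wall genes all lie right of the line.

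Genes for cellulose, xylan, lignin and vessel cell death, together called wall genes here, were counted next in 4 lists matched by description. Whether each listed gene is a target of the NAC and MYB cascade was not tested. Of 242 such genes 54 were tested and 18 of them were called, all 18 higher at 15DPA. That is 33.3% of those tested, against 13% of all genes called higher. The count fell to 6 without replicate 2 of 5DPA, 8 without replicate 1 of 15DPA, 10 without replicate 1 of 5DPA and 11 without replicate 3 of 5DPA. With library totals alone, which shift the median of all genes from −0.04 to −0.33, 11 were higher and 2 lower, and limma called 11 higher and 4 lower.

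Genes for the secondary wall cellulose synthase did not pass. The 12 genes matching CesA4, CesA7 and CesA8, the catalytic subunits of that synthase, summed to 6.41, 7.04 and 5.06 FPKM at 15DPA and 6.02, 6.51 and 5.96 FPKM at 5DPA. The stages overlapped. The 4 CesA7 genes had 0.53 ± 0.257 and 0.455 ± 0.0679 FPKM in sum at 15DPA and 5DPA (SD, n = 3 each). Of 3 genes tested 0 were called by edgeR, 1 had an unadjusted p under 0.05, and DESeq2 and limma called 0. At 15DPA the summed level of the D12 and D03 NAC genes, 11.5, 8.93 and 14.2 FPKM, was above that of all 12 synthase genes in each library. The NAC genes were picked for being much higher at 15DPA, which favoured this order in advance. At 5DPA they summed to 0.893, 0.148 and 0.367 FPKM, below the synthase genes in each library.

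Genes matching COBRA-like 4 and chitinase-like 2, further partners of secondary wall cellulose, had no tested member. The 6 assembly partners that were tested, 4 matching endoglucanase 25 (KORRIGAN) and 2 matching fasciclin-like protein 12, all rose by modest amounts, from 0.67 to 1.29 on the log2 scale. All 6 were called higher with all libraries in the fit, where 13% of all tested genes were. Gh_A09G124800, a fasciclin-like cell surface protein and the most abundant of them, rose by 1.29 ± 0.30 (SE, edgeR adjusted p = 0.0237), and Gh_D09G117000 by 1.00 ± 0.29 (SE, edgeR adjusted p = 0.0426). The endoglucanases Gh_A06G125000 and Gh_D06G137300 had log2 changes of 0.81 ± 0.20 and 0.72 ± 0.17 (SE) and passed, at edgeR adjusted p = 0.028 and 0.0246. The calls of these 4 genes were each lost without replicate 1 of 15DPA and without replicates 1 or 2 of 5DPA, with adjusted p up to 0.146. The number called among the cellulose genes was 1 without replicate 1 of 15DPA, 1 without replicate 2 of 5DPA, 2 without replicate 1 of 5DPA and 3 with library totals alone.

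Xylan, the main hemicellulose of secondary walls in woody cells, had members with changes nearer in size to those of the NAC genes. Of 102 genes 34 were tested and 9 (26.5%) rose, where 13% of all tested genes were called higher. The median log2 change was 0.06, against −0.04 over all genes. The backbone and end-group genes had 6 of 28 (21.4%) called higher and the side-chain genes 3 of 6 (50%). Of the 4 most abundant tested genes, Gh_D13G264900 (IRX7) and Gh_A09G187300 (TBL35) did not pass, and Gh_D02G082300 and Gh_A02G078900 (both IRX7) had log2 changes of 0.69 ± 0.20 and 0.71 ± 0.16 (SE) and passed, at edgeR adjusted p = 0.0461 and 0.0213. Both of these calls were lost without replicate 1 of 15DPA and without replicates 1 or 2 of 5DPA, among other settings.

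The larger rises belonged to genes outside the naming rule, which were singled out after their values were seen. Gh_D09G162800, on D09 from 43674730 to 43676838, is matched to IRX9, a xylan backbone synthesis protein. It had 53, 28 and 51 reads at 5DPA and 634, 535 and 589 reads at 15DPA, or 2.25, 1.12 and 2.05 FPKM against 25.8, 20.9 and 25 FPKM. All 15DPA libraries were far above those of 5DPA (log2 change 4.02 ± 0.30 SE, edgeR adjusted p = 0.00152). The other gene of the table matched to IRX9, Gh_A09G171600, had 12, 6 and 1 reads at 15DPA and 1, 3 and 2 at 5DPA, so that most IRX9 reads fell on the D09 gene. The D09 gene was singled out for its rise, which favoured this. Whether the A09 gene is its counterpart by position was not checked.

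The IRX10 genes Gh_A03G179200 and Gh_D02G196000, whose Arabidopsis match elongates the xylan backbone, rose as well. The A03 gene went from 1.92, 1.72 and 2.46 FPKM to 13.3, 8.28 and 11.6 FPKM, a log2 change of 2.75 ± 0.29 (SE) with an edgeR adjusted p of 0.00285. The D02 gene went from 1.1, 0.717 and 2.09 FPKM to 11.6, 7.07 and 11.8 FPKM, a log2 change of 3.26 ± 0.45 (SE) with an edgeR adjusted p of 0.00577. Gh_A10G070900, matched to the glucuronosyltransferase that adds xylan side chains, went from 0.409 ± 0.127 to 2.3 ± 0.588 FPKM (SD, n = 3 each; log2 change 2.78 ± 0.37 SE, edgeR adjusted p = 0.00551). These 4 genes passed without each library in turn. The tested genes that match IRX9H or IRX10L had log2 changes from −0.69 to 0.40 and did not pass.

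Lignin, of which cotton fiber walls hold little, is made under the same cascade in woody cells. Of 63 laccase and peroxidase genes 7 were tested and 2 (28.6%) rose, where 13% of all tested genes were called higher. Gh_A11G377400, matched to laccase-4, went from 0.669, 0.629 and 1.13 FPKM to 6.84, 5.85 and 5.03 FPKM. Its log2 change was 3.15 ± 0.30 (SE) with an edgeR adjusted p of 0.00231, and it passed without each library in turn. Gh_D09G165500, matched to laccase-17 and chosen after its values were seen, had 1, 0 and 0 reads at 5DPA and 19, 16 and 294 at 15DPA (edgeR adjusted p = 0.0221). Its mean level rested mostly on replicate 3, the library in which the D03 NAC gene was also highest. The call was lost by limma and without any single 5DPA library, and DESeq2 gave it no adjusted p.

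The peroxidase 72 genes Gh_A11G047300 and Gh_D11G047800 and the peroxidase 64 gene Gh_A02G205000 did not pass (edgeR adjusted p = 0.26, 0.23 and 0.859). Of 4 tested genes of vessel cell death 1 (25%) was called higher, against 13% of all tested genes. It was Gh_D06G210400, matched to metacaspase-9, which rose by 0.61 ± 0.17 (SE, edgeR adjusted p = 0.0408), a call lost under 7 alternatives. The others, Gh_A12G186600, Gh_D10G020500 and Gh_A10G011700, did not pass. Their log2 changes, −2.31, −1.68 and −1.54, turned to 4.02, 2.18 and 2.43 without replicate 1 of 5DPA, and those of the peroxidase 72 genes from −3.35 and −3.45 to 3.65 and 3.79, again without passing.

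Among the 32571 other tested genes with a protein match, those whose log2(FPKM + 1) profiles over the 6 libraries were nearest to the D12 gene, by root mean square difference, were Gh_A08G214500 at 0.165, Gh_D09G146400 at 0.172, Gh_D08G198600 at 0.173, Gh_A12G026500 at 0.189 and Gh_A05G094700 at 0.198. They match a galacturonosyltransferase 6, a tropinone reductase-like protein, the protease cucumisin, methylesterase 10 and an inactive receptor-like kinase. The nearest of them had 0.331, 0.345 and 0.209 FPKM at 5DPA and 5.61, 4.64 and 4.19 FPKM at 15DPA. Gh_A02G117000 was 10th in this order, at 0.275, and the D03 gene 65th, at 0.492.

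For the D03 gene the nearest profiles were those of Gh_D11G331200 at 0.203, Gh_D06G021700 at 0.277, Gh_D01G066400 at 0.278, Gh_D08G162700 at 0.286 and Gh_A11G011900 at 0.306. They match a leucine-rich repeat receptor-like kinase, a carbohydrate esterase, a lectin receptor-like kinase, serine carboxypeptidase-like 40 and reticulon-like B2. The first had 5.33, 3.9 and 12.4 FPKM at 15DPA, with the same low replicate 2 and high replicate 3 as the D03 gene. The search used these same values, so a shared pattern was favoured in advance. The D12 gene was 29th in the order for the D03 gene and Gh_A02G117000 32nd. Within 15DPA the D12 gene was also lowest in replicate 2, but its Poisson intervals overlapped among the 3 libraries.

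**Figure D5:**
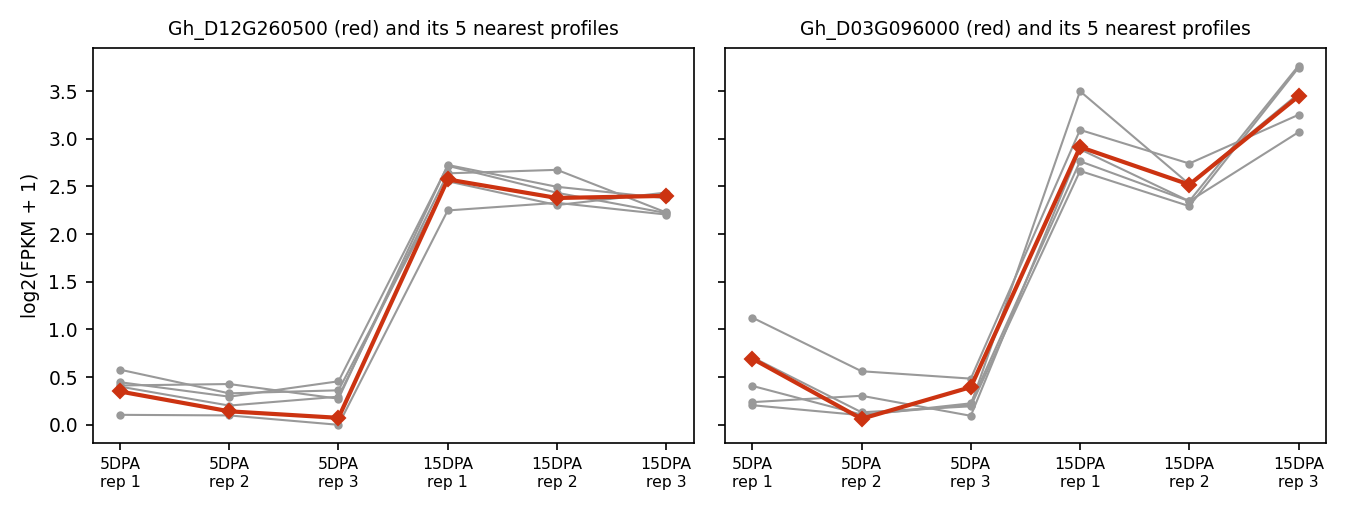
Log2(FPKM + 1) in each library for the D12 gene and the D03 gene (red diamonds) and for the 5 genes nearest to each (grey). The D12 gene and its set do not share a lowest 15DPA library, and the D03 gene and its set are all lowest in replicate 2 of 15DPA. The search for near profiles used these same values, which favours a shared pattern. Libraries within a stage have no order.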

How the data were processed

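Per the file headers, the deposited table pairs a read count with an FPKM value for every gene and library. The counts deposited were raw. The authors' FPKM values equal the count per kilobase of gene model and per M reads of the library, which was checked for each gene to a relative difference of 0.0001. HISAT and StringTie are named in the submitters' processing notes without versions; the sources used here give no build, annotation, counting settings or use of strand. Reads shared by near-identical copies make the values of single copies uncertain. Empty lines of the table, 2 in number, were left out.

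Genes with a mean of at least 1 FPKM (40054) were tested with edgeR 4.0.16 (glmQLFit, glmQLFTest, TMM) in R 4.3.3, two-sided, with Benjamini-Hochberg adjustment over all of them and a threshold of 0.05; edgeR gave every log2 change, SE and adjusted p unless another tool is named. Fold changes are 15DPA over 5DPA. Alternatives used limma 3.58.1, DESeq2 1.42.0, library totals, other filters, a pseudocount of 0.1, a replicate block, a wider match of descriptions, and each library left out. Poisson and binomial intervals are exact and cover counting error only.

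The members and lists were chosen with earlier results of these data known. Lists were matched by Swiss-Prot description. Named genes were both members, all genes matched to NAC43, all tested regulators, the 4 most abundant tested genes of each target list, the 5 nearest profiles of each member and the nearest described neighbours; others are marked as chosen after their values were seen. Sums over lists are given without a test, since 3 libraries against 3 cannot go below an exact permutation p of 0.1. The labels do not say whether replicates came from separate plants, so p-values measure the spread between these libraries.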

Additional observations from a re-analysis of the deposited data

How the results depend on the processing

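The log2 changes of both members stayed positive under each alternative run. They ran from 4.85 to 6.03 (Gh_D12G260500) and from 4.19 to 5.55 (Gh_D03G096000) with a library left out. On the log2(FPKM + 1) scale of limma they were 2.26 and 2.57, and with a pseudocount of 0.1 that of Gh_D12G260500 was 4.34; pseudocounts shrink the changes of genes near 0. With a library left out, calls ran from 2319 to 11434 over all genes (9357 with all), from 0 to 4 for the regulators, from 6 to 18 for all wall genes, from 1 to 6 for cellulose, from 4 to 10 for xylan, from 1 to 2 for lignin and from 0 to 1 for vessel cell death. With library totals alone 3 cellulose and 0 cell death genes were called; by limma 1 lignin and 0 cell death genes; by DESeq2 1 lignin gene, the other having no adjusted p; without a filter 4 lignin genes. The causes were not tested. Gh_A04G121300 turned from −0.29 to 1.48 without replicate 1 of 5DPA, and ran from −0.75 to 1.48 with a library left out. Libraries with the same number had correlations of −0.22, 0.32 and 0.06 between their deviations, without a common sign, and were not treated as pairs. Deviations from means of 3 libraries are tied to each other, so this cannot exclude a pairing. With the replicate block the regulators had 2 calls and all genes 8967. Of 30 called genes other than the members that were followed through the alternatives, 16 kept the call under each one run. Most of these 16 were nearest profiles of the members or were chosen after their values were seen. The count is therefore no general rate of how calls hold. Among the followed genes without a call, 4 gained one under some alternative, apart from Gh_A04G121300. At 5DPA the members rested on 1 to 13 reads a library, which limits their fold changes.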
